A study of Mus musculus with 12 samples.

Results

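The genes described here are 8 genes of iron storage and heme handling, chosen by symbol from the 31054 features listed in the treated libraries of a mouse brain single-cell RNA sequencing series, and followed in all 12 of its libraries. They are the ferritin subunits Fth1 and Ftl1, the transferrin receptor Tfrc, transferrin (Trf), the ferroxidase ceruloplasmin (Cp), heme oxygenase 1 (Hmox1), biliverdin reductase B (Blvrb) and the iron-sensing RNA-binding protein Ireb2. The choice followed a list of symbols and no cut-off on measured values, but earlier results of these data were known when it was made.

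The series compares hematopoietic stem and progenitor cell (HSPC)-derived microglia-like cells with endogenous microglia of the same brains, after intravenous (i.v.) or intracerebroventricular (i.c.v.) dosing. The 4 recipients were wild-type C57BL/6J mice conditioned with the alkylating agent busulfan. Each received lineage-negative HSPCs of male donors, transduced with a lentiviral vector encoding GFP, and later a support dose of non-transduced total bone marrow given i.v., also in the i.c.v. animals. Mouse 2 (female) and mouse 27 (male) were dosed i.v., and mouse 4 (female) and mouse 19 (male) i.c.v. The labels give an age of 22 to 28 weeks, and the design text places the collection 12 to 13 months after dosing. These cannot both hold if age is counted from birth. Brains were dissociated with enzymes and CD45+ CD11b+ CX3CR1+ cells were sorted as GFP+ or GFP-, so that each mouse gave 1 GFP+ and 1 GFP- library. The GFP- sort does not separate resident microglia from donor-derived cells without the vector, and the share of the latter was not measured here. Another 4 libraries, 1 each, came from a single untreated C57BL/6J animal by the design text, which gives its age as 12 weeks where the labels give 8 to 12. These were neuron, astrocyte and microglia sorts and white blood cells, so they have no replicate and share 1 animal.

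Iron enters most cells bound to transferrin, which the transferrin receptor carries into the endosome. Iron that is not used is stored inside a shell of ferritin, built of heavy (Fth1) and light (Ftl1) chains, of which the heavy chain oxidizes iron. Heme taken up with dying cells is opened by heme oxygenase, which releases iron, carbon monoxide and biliverdin, and biliverdin reductases turn biliverdin into bilirubin. Iron-regulatory proteins, one of which is encoded by Ireb2, bind hairpins called iron-responsive elements when iron is scarce, and by this hold back the translation of ferritin mRNA and protect the mRNA of the transferrin receptor. Macrophages, which clear red cells and debris, are a main site of these reactions, and microglia are iron-handling cells of the brain.

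The hairpins are shown because they sort these genes by how iron acts on their mRNA. A search of the untranslated regions (UTRs) of GENCODE M21 transcripts (GRCm38) for a bulged C, 5 paired bases, the loop CAGTGN and the 5 paired partners, with G-to-T pairs allowed, found 1 match in the 5′ UTR of Fth1, 1 in the 5′ UTR of Ftl1 and 4 in the 3′ UTR of Tfrc, and none in the other 5 genes. Of all genes with a 5′ UTR, 30 of 20916 (0.143%) held a match there, and of all genes with a 3′ UTR, 128 of 21707 (0.590%). The capitals mark the loop and the letters are given as DNA, 5′ to 3′ on the strand of the gene.
Fth1, 5′ UTR, chr19:9982733-9982759, plus strand: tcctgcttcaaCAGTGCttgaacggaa
Ftl1, 5′ UTR, chr7:45459780-45459806, minus strand: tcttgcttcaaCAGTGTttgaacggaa
Tfrc, 3′ UTR, chr16:32631220-32631246, plus strand: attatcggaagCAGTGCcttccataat
Tfrc, 3′ UTR, chr16:32631599-32631625, plus strand: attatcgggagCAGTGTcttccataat
Tfrc, 3′ UTR, chr16:32631664-32631690, plus strand: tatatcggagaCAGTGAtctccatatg
Tfrc, 3′ UTR, chr16:32631711-32631737, plus strand: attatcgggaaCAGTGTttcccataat
A match is a description of the letters and not a measured site. UMI counts read the number of mRNA molecules and not their translation.

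The depth behind these values was 4970758 to 8105756 UMIs (unique molecular identifiers, 1 per captured mRNA molecule) in the GFP- libraries, 8835197 to 16514669 in the GFP+ libraries and 987965 to 4804709 in the naive ones. Levels are given as counts per 1000000 UMIs of a library (CPM), summed over its kept cells. The GFP+ library of mouse 2 stood apart, with a median of 3499 UMIs per cell against 842 to 1307.5 in the other treated libraries. Libraries shared at most 8 cell barcodes in any pair. The vector transcript EGFP was 7.96 higher on the log2 scale in the GFP+ sort (adjusted p = 1.77e-05, edgeR). Cells with at least 3 of 9 microglia markers made up 94.2 to 97.0% of GFP- and 61.7 to 76.3% of GFP+ cells. Of naive neuron-sort cells, 96.2% held at least 3 oligodendrocyte markers and at most 0.522% of any naive library held 3 neuronal ones, so that library is called the naive neuron sort by its label only.

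In the comparison of GFP+ with GFP- libraries, 5 of the 8 genes passed the test. In sums over kept cells, Cp, Blvrb, Fth1 and Ftl1 were higher in GFP+ libraries by 3.48-, 1.87-, 1.71- and 1.64-fold. Ireb2 was lower, at 0.710 of its GFP- level. Of the 11756 genes tested, 32.5% were called (16.6% higher and 15.9% lower), so calls were common in this comparison. The median log2 fold change of the 8 genes was 0.66 and that of all genes tested 0.01. Fold changes come from edgeR quasi-likelihood fits over 4 and 4 libraries with TMM scaling, a correction of library totals for composition, and genes were called at a Benjamini-Hochberg adjusted p under 0.05. The median gene was 0.25 lower in GFP+ libraries on the log2 scale of plain CPM and 0.0051 higher on that of TMM-scaled CPM, so a fold change on the TMM scale is a change relative to that shift. Bulk sums cannot tell more cells of a type from more RNA per cell.

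Fth1 encodes the ferritin heavy chain (chr19:9980598-9985098, plus strand). Its GFP- libraries held 5487, 4046, 8071 and 5249 CPM in mice 2, 27, 4 and 19, in that order here and below. The GFP+ libraries held 9351, 8361, 7233 and 7297 CPM. The 1% of cells with the most Fth1 UMIs held 22.3 to 38.1% of them in GFP- and 13.8 to 16.3% in GFP+ libraries. In the GFP- library of mouse 2, 1 cell alone held 4045 of the 27275 Fth1 UMIs. The GFP- library of mouse 4 reached into the GFP+ range, and mouse 4 was the only mouse with less Fth1 in its GFP+ than in its GFP- cells. The log2 fold change was 0.77 ± 0.24 (SE, adjusted p = 0.0385), with TMM-scaled means of 8956 ± 1507 and 5248 ± 1821 CPM (SD, n = 4 each). The call was the least stable of the 5. It was lost with mouse as a block (0.82, adjusted p = 0.0698), with library totals in place of TMM (0.50, adjusted p = 0.0767) and without either GFP- i.v. library, either GFP+ i.v. library or either library of mouse 19 (0.62 to 0.82, adjusted p = 0.0531 to 0.0966). Without the deep GFP+ library of mouse 2 it was 0.67 (adjusted p = 0.0909). The share of cells with a Fth1 UMI was not higher throughout. At 500 UMIs per cell it was 70.9% in GFP+ and 74.0% in GFP- cells (means of 4 libraries). At the cells' own depth it was 82.5 and 89.0%. Among cells of at least 1000 UMIs, thinned to 1000, it was 91.0 and 86.1%.

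Ftl1 encodes the ferritin light chain (chr7:45457944-45459884, minus strand). GFP- libraries held 3054, 3342, 4192 and 3784 CPM, and GFP+ libraries 5205, 4857, 4097 and 5253 CPM. On plain CPM the groups overlapped through mouse 4 alone, whose GFP+ level lay just under its GFP- level. On the TMM scale the lowest GFP+ level exceeded the highest GFP- level, which 16.8% of all genes tested showed. The log2 fold change was 0.71 ± 0.18 (adjusted p = 0.0149). The blocked fit gave 0.72 (adjusted p = 0.0507), and leaving out the GFP- library of mouse 27 gave 0.66 (adjusted p = 0.0505). Of the other ferritin-like features only the pseudogene Ftl1-ps1 had UMIs in the treated libraries, 3269 against 327782 of Ftl1 and 540355 of Fth1. Reads that both copies could share cannot be assigned to one of them, and the Ftl1 level is uncertain to that extent.

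**Figure D1:**
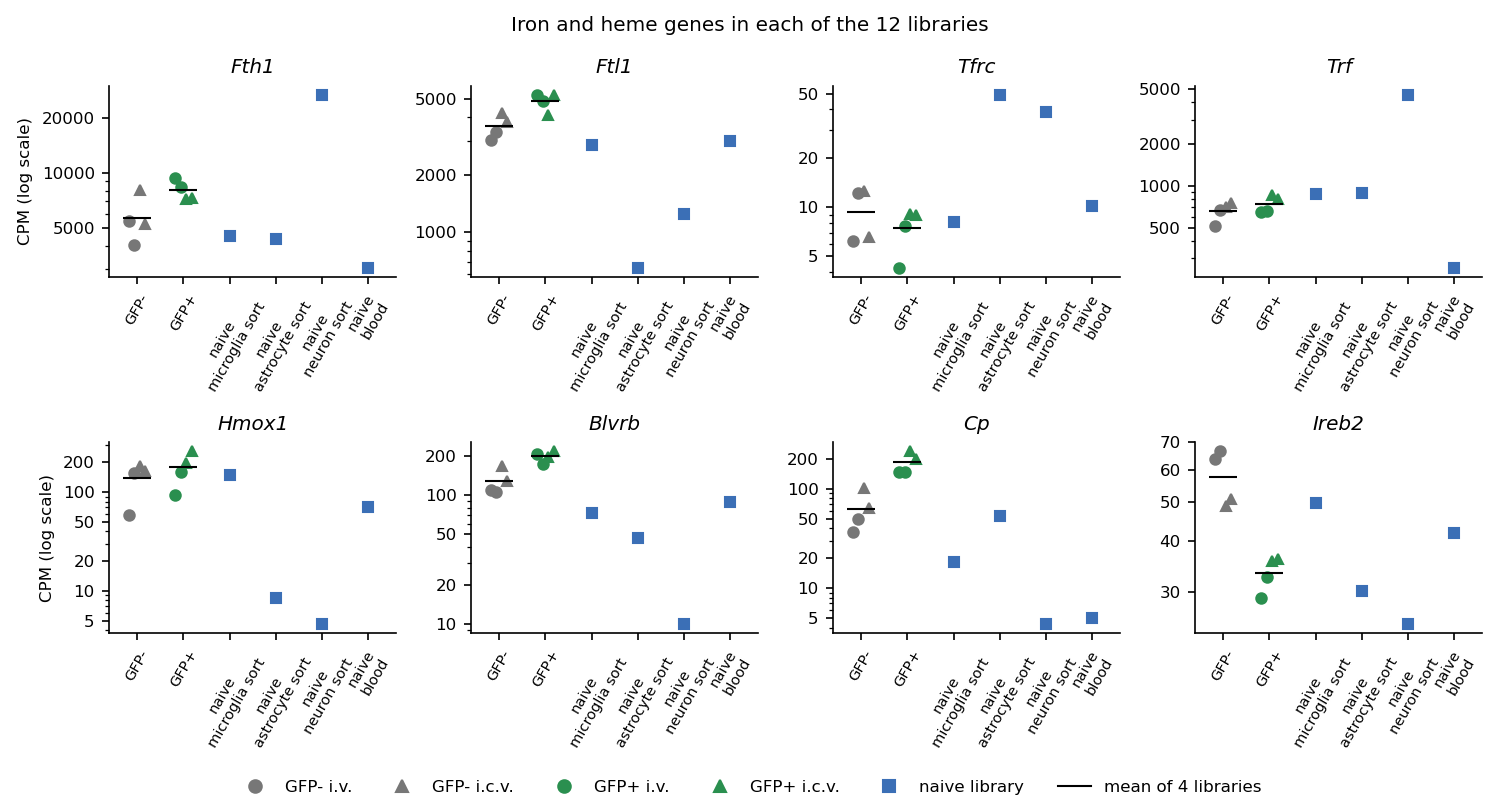
Level of each of the 8 genes in each library, in CPM on a log axis. Grey and green points are GFP- and GFP+ libraries (circles i.v., triangles i.c.v.) with a line at the mean of 4, and blue squares are the single naive libraries. Cp and Blvrb lie higher and Ireb2 lower in all 4 GFP+ libraries than in any GFP- library, and Fth1 and Trf stand highest in the naive neuron sort.

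No difference in the balance of both ferritin chains was detected between the sorts. GFP- libraries held 1.80, 1.21, 1.93 and 1.39 Fth1 UMIs per Ftl1 UMI, and GFP+ libraries 1.80, 1.72, 1.77 and 1.39. In the GFP- library of mouse 2, 1 cell held 4045 of the 27275 Fth1 UMIs behind its ratio. Means were 1.67 ± 0.189 in GFP+ and 1.58 ± 0.337 in GFP- cells (SD, n = 4 each), a log2 difference of 0.10 (p = 0.657, exact two-sided permutation test, for which 0.0286 is the smallest p possible). The ratio was higher in the GFP+ cells of 2 of 4 mice. Both mice in which it stood lowest in GFP- cells, 27 and 19, were male, and in mouse 27 the GFP+ ratio lay above the GFP- one, whereas in mouse 19 both were 1.39. The naive microglia sort, at 1.58, lay within the GFP- range. Blood cells held 7954 Fth1 and 7917 Ftl1 UMIs, the astrocyte sort 6.72 Fth1 UMIs per Ftl1 UMI and the neuron sort 21.5.

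**Figure D2:**
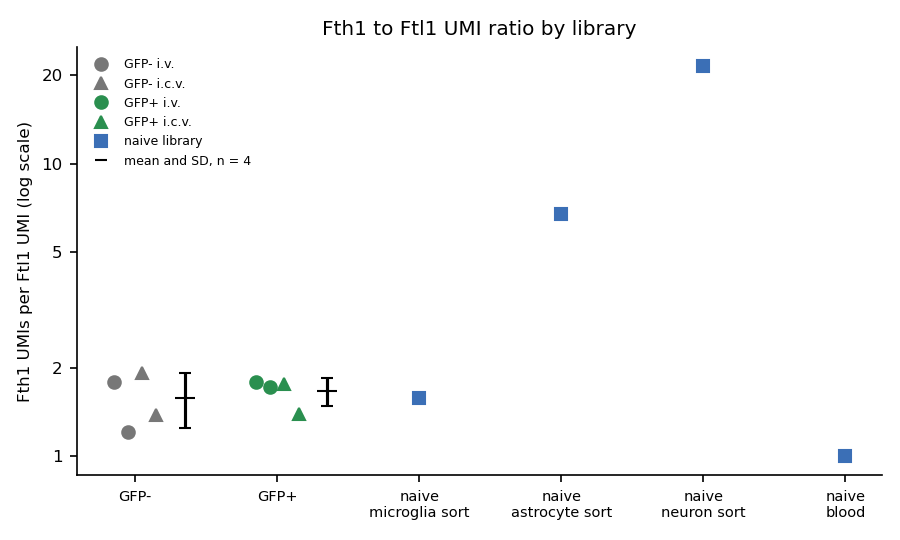
Number of Fth1 UMIs per Ftl1 UMI in each library, on a log axis, with the mean and SD of the 4 GFP- and the 4 GFP+ libraries. All 8 treated libraries lie between 1.21 and 1.93, and the naive neuron sort stands at 21.5.

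Tfrc, the receptor for iron-loaded transferrin (chr16:32608920-32632794, plus strand), was scarce. GFP- libraries held 6.24, 12.3, 12.6 and 6.56 CPM, and GFP+ libraries 4.24, 7.70, 9.17 and 8.99 CPM, resting on 31 to 102 UMIs a library. The groups overlapped and the log2 fold change was -0.07 ± 0.31 (adjusted p = 0.877). No difference was detected, and whether low counts or the spread between libraries limited this was not tested. A Tfrc UMI was found in 0.391 to 0.571% of GFP- and 0.255 to 0.649% of GFP+ cells when every cell was drawn down to 500 UMIs. The naive astrocyte sort (49.3 CPM) and neuron sort (38.7 CPM) held the most Tfrc, and the naive microglia sort held 8.10 CPM from 8 UMIs.

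Trf encodes transferrin, the iron carrier, which oligodendrocytes make in the brain (chr9:103204001-103230444, minus strand). GFP- libraries held 511, 673, 701 and 749 CPM, and GFP+ libraries 648, 663, 854 and 809 CPM. On plain CPM the groups overlapped, and on the TMM scale they did not, with GFP+ higher, which 16.8% of all genes tested showed. The log2 fold change of 0.45 ± 0.15 just missed the threshold (adjusted p = 0.0508). It passed in the blocked fit (0.46, adjusted p = 0.0378), with DESeq2 (0.44, adjusted p = 0.0174), with a stricter filter on cells (0.54, adjusted p = 0.0252) and where cells with at least 3 markers of other cell types were left out (0.46, adjusted p = 0.0391). Of 16 alternative settings, 5 called Trf, 10 did not, and in 1 the sign turned (-0.48). Of 8 fits with 1 library left out, 1 called it. Cells with at least 3 oligodendrocyte markers held 0.118 to 4.41% of Trf UMIs in treated libraries, and the rest lay in cells without 3 such markers, whereas the naive neuron sort, with 4545 CPM, was made of such cells. A Trf UMI was present in 34.2% of naive microglia-sort cells and in 83.8% of neuron-sort cells at 500 UMIs, against 7.19% of blood cells.

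Cp oxidizes iron so that transferrin can take it up (chr3:19957054-20009145, plus strand). Of the 8 genes its difference was largest. GFP- libraries held 36.6, 49.3, 100.3 and 64.2 CPM, and GFP+ libraries 149, 147, 239 and 201 CPM. The lowest GFP+ library exceeded the highest GFP- one on plain CPM, which 6.29% of all genes tested showed. The log2 fold change was 1.80 ± 0.31 (adjusted p = 0.00392), higher in 4 of 4 mice. It remained called with mouse as a block (1.90, adjusted p = 0.00553), without any single library (1.61 to 2.17) and with every cell thinned to 500 UMIs (2.27, adjusted p = 0.000437). At that fixed depth, 1.46, 1.60, 4.64 and 2.62% of GFP- cells held a Cp UMI, against 9.57, 10.1, 13.7 and 11.5% of GFP+ cells. Blood cells, with a median of 6875 UMIs, gave 0 of 334 cells with a Cp UMI at 500 UMIs, where 3 cells would be 0.898%, and 10 of 341 cells (2.93%) at their own depth, and the naive microglia sort, with a median of 425 UMIs, 0.622% (exact 95% interval 0.129 to 1.81%).

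Hmox1, the inducible enzyme that opens the heme ring (chr8:75093621-75100589, plus strand), was uneven among libraries. GFP- libraries held 58.7, 157, 183 and 163 CPM, and GFP+ libraries 94.2, 160, 195 and 261 CPM. Mouse 2 was lowest in both sorts and the groups overlapped, though the GFP+ library was higher in each of the 4 mice. The log2 fold change was 0.60 ± 0.37 (adjusted p = 0.244). In the fit with mouse as a block it was 0.65 and passed the test (adjusted p = 0.0344). No other setting called Hmox1 in this comparison of all 8 libraries. After i.v. dosing its log2 fold change between the sorts ran from 0.13 to 1.52 with 1 library left out.

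Blvrb, which reduces biliverdin and also flavins (chr7:27447978-27466144, plus strand), was higher in all GFP+ libraries. GFP- libraries held 110, 106, 170 and 130 CPM, and GFP+ libraries 210, 173, 198 and 221 CPM. The groups did not overlap on either scale. On plain CPM 6.29% of all genes tested lay higher in this way, and on the TMM scale 16.8%. The log2 fold change was 0.91 ± 0.18 (adjusted p = 0.00732), and it stayed past the threshold with the block (0.94, adjusted p = 0.0197), without any single library (0.80 to 1.11) and at 500 UMIs per cell (0.91, adjusted p = 0.0167).

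Ireb2 encodes iron-regulatory protein 2 (chr9:54863789-54912530, plus strand), and it was the only one of the 8 genes that passed the test as lower in GFP+ cells. GFP- libraries held 63.8, 66.7, 48.7 and 50.8 CPM, and GFP+ libraries 29.0, 32.7, 35.9 and 36.1 CPM. The highest GFP+ level lay below the lowest GFP- level on both scales. On plain CPM 32.6% of all genes tested did so, and on the TMM scale 17.9%. Ireb2 fell by 0.49 ± 0.10 on the log2 scale (adjusted p = 0.00851), lower in 4 of 4 mice. The difference was not seen at 500 UMIs per cell (-0.10, adjusted p = 0.773), where 2.67 to 4.15% of GFP- and 2.71 to 3.40% of GFP+ cells held an Ireb2 UMI.

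**Figure D3:**
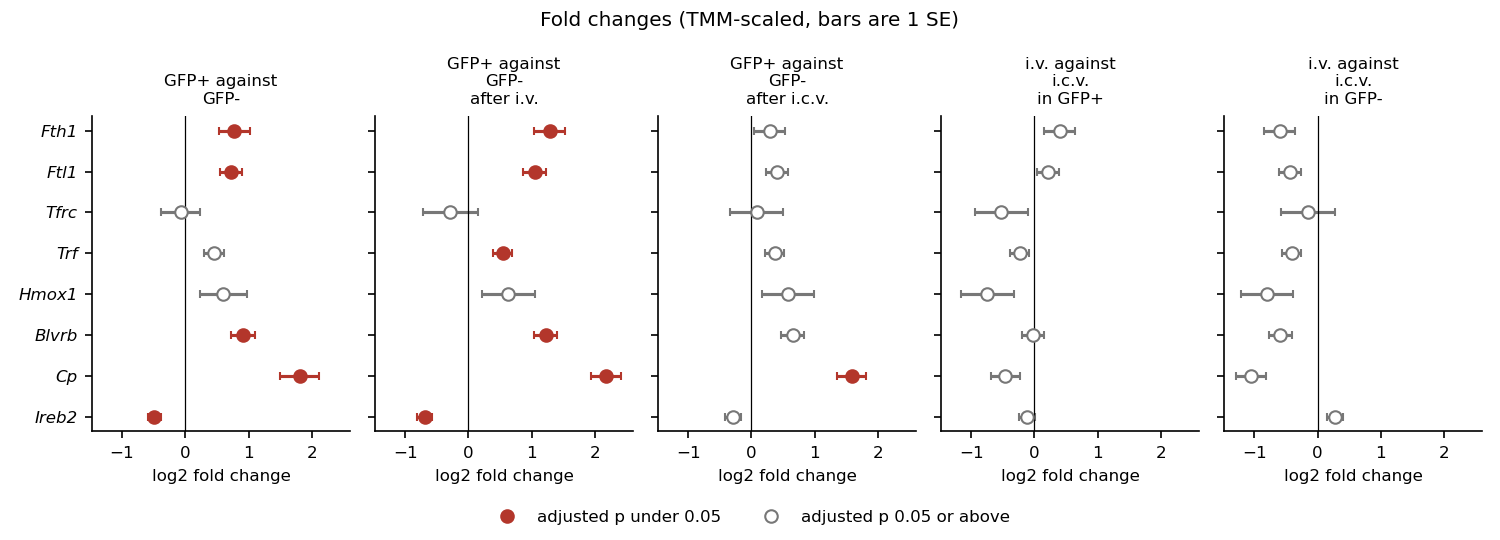
Log2 fold change of each gene in 5 comparisons, with bars of 1 SE from edgeR. Filled red points passed an adjusted p of 0.05. The first panel has 5 filled points, the i.v. panel 6, the i.c.v. panel 1 (Cp), and both panels of i.v. against i.c.v. none.

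After i.v. dosing alone, 6 genes passed the test between the sorts: Fth1 (1.28), Ftl1 (1.04), Trf (0.54), Blvrb (1.22) and Cp (2.17) were higher in GFP+ cells and Ireb2 (-0.69) lower, each a log2 fold change (adjusted p = 0.000688 to 0.0249). In that comparison 35.9% of 12540 genes were called, 18.9% higher and 17% lower. The Trf call was lost without the GFP- library of mouse 2 (0.39, adjusted p = 0.115) and the GFP+ libraries of mouse 2 (0.57, adjusted p = 0.0650) and mouse 27 (0.52, adjusted p = 0.0692), and with library totals in place of TMM (0.15, adjusted p = 0.477). The other 5 calls held without any single library. After i.c.v. dosing 1 gene passed, Cp, at 1.58 ± 0.23 (adjusted p = 0.00999), where 5.77% of genes were called, 1.34% higher and 4.43% lower. The Cp call was lost without the GFP+ library of mouse 4 (1.49, adjusted p = 0.0526), the GFP- library of mouse 19 (1.27, adjusted p = 0.0510) or the GFP+ library of mouse 19 (1.67, adjusted p = 0.0587). Fth1 was 0.29 ± 0.24 and Ftl1 0.40 ± 0.17 after i.c.v. dosing (adjusted p = 0.547 and 0.232). A larger sort difference after i.v. than after i.c.v. dosing was itself tested as an interaction, which called none of the 8 genes (1.91% of all genes were called). An unadjusted p under 0.05 was reached by 2 of the 8 genes and by 17.8% of all genes. The interaction was 0.99 ± 0.34 for Fth1 (adjusted p = 0.182) and 0.64 ± 0.25 for Ftl1 (adjusted p = 0.224). For Fth1 it passed with DESeq2 (adjusted p = 0.0401) and with no filter on low counts (adjusted p = 0.0485). Among cells with fewer than 3 markers of CNS-associated macrophages it was 1.57 (adjusted p = 0.0167). Each arm of these comparisons has 2 libraries, 1 of each sex.

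Between routes none of the 8 genes passed the test in either sort. In GFP+ cells 2.78% of all genes were called, and 16.5% had an unadjusted p under 0.05 against none of the 8. The fold changes of i.v. over i.c.v. ran from -0.74 ± 0.41 for Hmox1 to 0.39 ± 0.24 for Fth1 on the log2 scale. In GFP- cells edgeR called no gene at all, while 1063 of 12540 (8.48%) had an unadjusted p under 0.05 and DESeq2 called 68. Here 5 of the 8 genes had an unadjusted p under 0.05, all lower after i.v. dosing: Cp at -1.05 ± 0.23, Fth1 at -0.60 ± 0.24, Blvrb at -0.59 ± 0.18, Ftl1 at -0.43 ± 0.17 and Trf at -0.40 ± 0.15 (adjusted p = 0.389 to 0.570). Cp was called in this comparison by DESeq2 (adjusted p = 0.00512) and with no filter on low counts (adjusted p = 0.0276).

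The sorts also differed in markers of CNS-associated macrophages (Mrc1, Pf4, Cd163, Lyve1, Cbr2, F13a1, Ms4a7 and Stab1, all 8 detected in every treated library). Their summed level was 881 to 1591 CPM in GFP- and 2021 to 2669 CPM in GFP+ libraries, and cells with at least 3 of them made up 3.89 to 13.1% of GFP- and 33.8 to 48.2% of GFP+ cells. In all 4 GFP- libraries 7 of the 8 genes had 1 direction between these cells and the rest, Tfrc being the exception. The share of all genes with 1 direction was not measured, so this count has no background. Blvrb was at 273 to 445 CPM in them and 71.3 to 105.6 CPM in the other cells, and Cp at 147 to 213 against 16.4 to 70.4 CPM. Fth1 was 1.62 to 3.91 times and Ftl1 1.67 to 2.92 times as high in them, in 4 of 4 libraries. Hmox1 (1.89 to 2.39 times) and Trf (1.25 to 1.48 times), neither of them called between the sorts, were also higher in them in 4 of 4 libraries. Ireb2 was lower in them in 4 of 4 libraries, at 28.1 to 37.0 against 54.9 to 73.3 CPM. The GFP+ libraries were less uniform. There Ftl1, Trf, Hmox1 and Blvrb were higher in such cells in 4 of 4 libraries. Fth1 was higher in 3 of 4 (0.948 to 1.51 times), Cp in 2 of 4, Ireb2 in 1 of 4 (0.367 to 1.10 times) and Tfrc in 0 of 4. Cells with 3 markers also tend to be deeper, since a deeper cell shows more of its genes.

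Within cells that held at least 3 of these markers, none of the 8 genes passed the test between the sorts (26 of all genes did), and log2 fold changes were -0.30 for Fth1, -0.19 for Ftl1, -0.36 for Blvrb, 0.19 for Cp and -0.23 for Ireb2 (adjusted p = 0.678 to 0.884). These fits rest on as few as 104 cells in a GFP- library. The numbers of genes tested in the fits by marker class are not given, so calls in them have no share of all genes beside them. Within cells that held fewer than 3, Cp (2.40, adjusted p = 0.0187) and Blvrb (0.78, adjusted p = 0.0414) were called, and Fth1 (0.95, adjusted p = 0.0938), Ftl1 (0.66, adjusted p = 0.106) and Ireb2 (-0.21, adjusted p = 0.462) were not. In GFP+ libraries Cp was higher in cells with 3 markers after i.v. dosing and lower in them after i.c.v. dosing. In GFP+ cells with fewer than 3 markers the route difference of i.v. over i.c.v. was called for Cp (-1.16, adjusted p = 0.0354) and Fth1 (0.97, adjusted p = 0.0170). Calls were common in that fit, with 2020 of all genes, against 348 of 12540 over all kept cells. In the naive microglia sort 16 of the 18 Cp UMIs lay in the 22 cells with at least 3 markers. How much of the sort differences goes with the share of such cells was not tested.

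**Figure D4:**
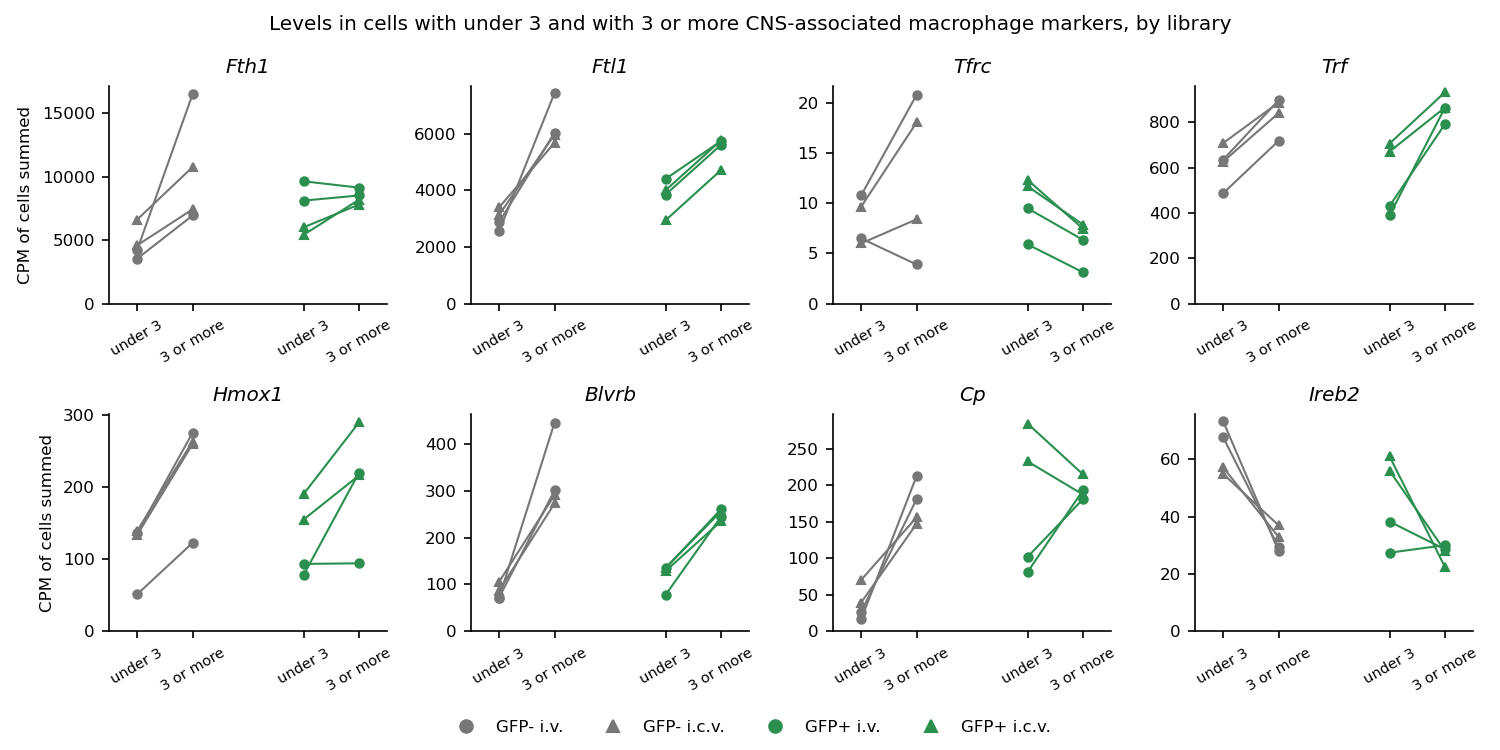
Level of each gene in the summed cells with under 3 and with 3 or more CNS-associated macrophage markers, in CPM, 1 line per treated library (grey GFP-, green GFP+, circles i.v., triangles i.c.v.). In all 4 GFP- libraries Blvrb and Cp are higher and Ireb2 lower on the right than on the left. With 3 or more markers Cp and Ireb2 overlap between the sorts, and Blvrb is at 273 to 445 CPM in GFP- and 235 to 260 CPM in GFP+ libraries.

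Cell depth moved with these genes as well. Cells with fewer than 1000 UMIs made up 783 to 1660 cells of each GFP+ library, and in them Fth1 was at 1641 to 2939 CPM against 7821 to 9588 CPM in deeper cells of the same libraries. Ftl1 was at 1096 to 2355 against 4435 to 5601 CPM. Cp ran the other way, with 326 to 394 CPM in shallow and 134 to 222 CPM in deeper GFP+ cells, and so did Ireb2, with 78.7 to 122.8 against 25.7 to 31.0 CPM. GFP- cells moved less for Fth1, at 2298 to 5311 CPM in shallow and 4247 to 8776 CPM in deeper cells, and Cp did not move one way, being lower in shallow cells of 3 of 4 libraries. The shallow GFP+ cells also differed in quality measures. The nuclear RNA Malat1 took 7.86 to 13.3% of their UMIs against 3.08 to 3.58% in deeper GFP+ cells, and ribosomal protein genes 2.92 to 4.66% against 11.9 to 15.8%.

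Between the sorts, Trf was among the genes called in cells with at least 1000 UMIs (0.49, adjusted p = 0.0362). In cells with fewer than 1000 UMIs, Cp alone was called (2.51, adjusted p = 0.000157), and the signs of Fth1 (-0.75, adjusted p = 0.0630), Ftl1 (-0.66, adjusted p = 0.102), Trf (-0.48, adjusted p = 0.145) and Ireb2 (0.44, adjusted p = 0.0871) turned. With every cell thinned to 500 UMIs, which gives shallow cells the same weight as deep ones, Cp and Blvrb were called and Fth1 was 0.42 (adjusted p = 0.333). When the summed counts were drawn down to the same totals without changing the weight of cells, Fth1 was 0.75 (adjusted p = 0.0364). The direction of the ferritin and Ireb2 differences is therefore stated for sums over all kept cells, which deep cells dominate. The numbers of genes tested in these fits by depth are not given, so the calls in them have no share of all genes beside them.

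**Figure D5:**
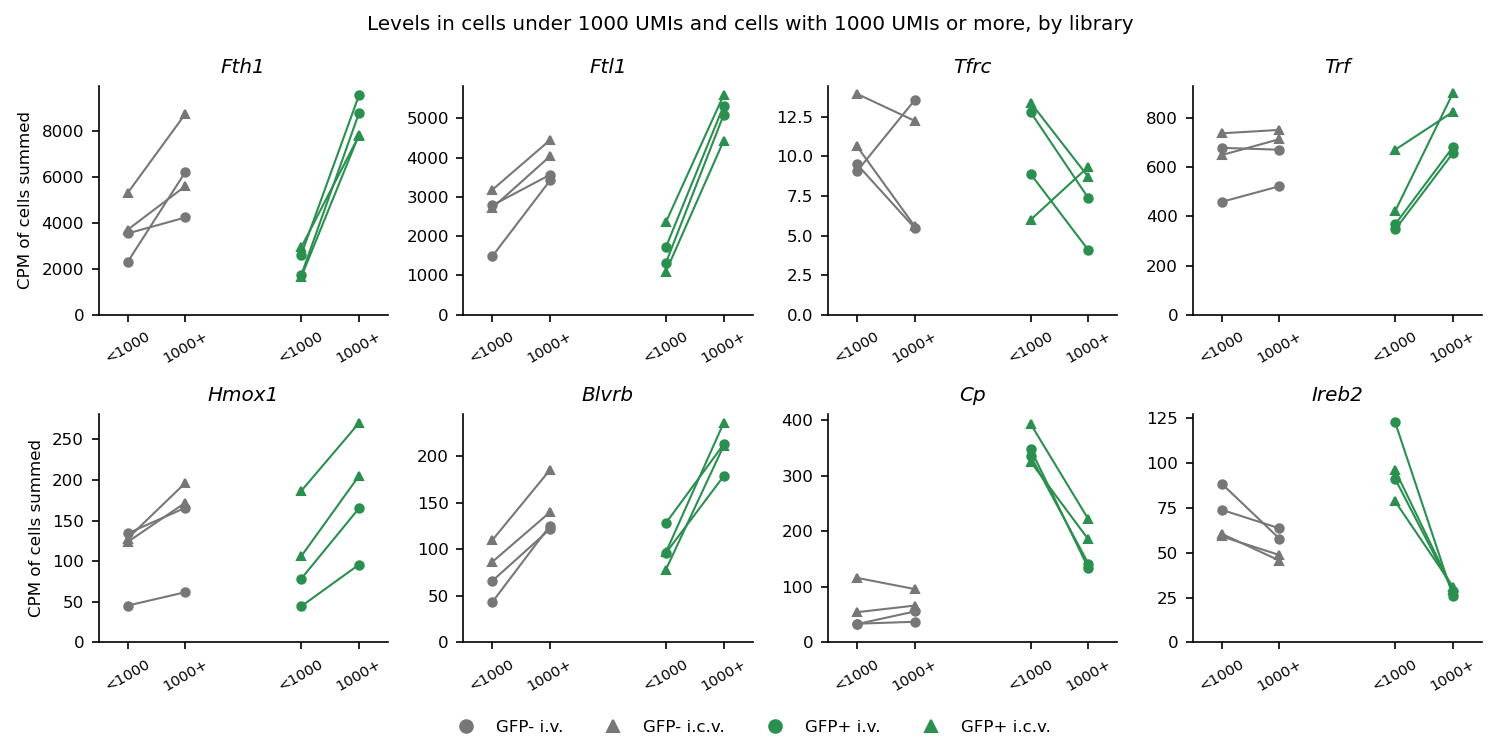
Level of each gene in the summed cells with under 1000 and with at least 1000 UMIs, in CPM, 1 line per treated library (grey GFP-, green GFP+, circles i.v., triangles i.c.v.). In all 4 GFP+ libraries Fth1 and Ftl1 are higher and Cp and Ireb2 lower in deep than in shallow cells, and Cp lies above every GFP- library in both classes.

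Neutrophil markers summed to 1669 and 3305 CPM in the GFP+ libraries of mice 2 and 27, against 511 and 340 CPM in their GFP- libraries. In mice 4 and 19 the order was the other way, with 112 and 113 CPM in GFP+ and 6035 and 1181 CPM in GFP- libraries. Cells with at least 3 of them held at most 2.36% of Fth1 UMIs in a treated library. Genes known to rise during enzymatic dissociation overlapped between the sorts, with 14751 to 18858 CPM in GFP+ and 16034 to 20813 CPM in GFP- libraries.

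The naive libraries place these levels beside other cells, without replicates. Fth1 stood at 26863 CPM in the neuron sort, 4509 in the microglia sort, 4354 in the astrocyte sort and 3023 in blood. Ftl1 was at 2849 CPM in the microglia sort and 3009 CPM in blood, and at 1251 and 648 CPM in the neuron and astrocyte sorts. Hmox1 was at 150 CPM in the microglia sort, 70.7 in blood and under 10 in both others (4.57 and 8.53). Cp was at 52.4 CPM in the astrocyte sort (95% Poisson interval 46.2 to 59.3), at 18.2 in the microglia sort (10.8 to 28.8) and at 4.94 and 4.31 in blood and the neuron sort, where the intervals overlapped. All GFP- libraries held more Cp than the naive microglia sort, at 36.6 CPM or more. Blvrb was at 72.9 CPM and Ireb2 at 49.6 CPM in the naive microglia sort. Age, treatment and depth differ between naive and treated libraries and cannot be told apart.

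Of 77 other genes of iron and heme metabolism from a list by role, 76 were in the files and 59 passed the filter on low counts. In GFP+ against GFP- libraries, 14 were higher, 7 lower and 38 not called, a share near the 32.5% called among all genes, with a median log2 fold change of 0.09. Heme transport and breakdown had the largest share of calls, 5 higher and 2 lower of 8. Slc48a1, which moves heme out of the lysosome, was 0.92 higher (adjusted p = 0.00640), Flvcr1, a heme exporter and choline transporter, 0.94 (adjusted p = 0.0223) and Blvra, the other biliverdin reductase, 0.68 (adjusted p = 0.00305), all on the log2 scale. Abcg2, an efflux pump that also carries porphyrins, fell by 0.94 (adjusted p = 0.00332) and Slc46a1, a folate and heme carrier, by 0.66 (adjusted p = 0.0156). Most members of this role therefore passed the test, but not in one direction. No role was tested as a set.

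Iron uptake genes had 3 lower and none higher of 10, where 15.9% of all genes tested were called lower and 16.6% higher. The 10 include Hp, Ltf and Lcn2, which neutrophils carry. Slc39a14, a metal importer, fell by 0.61 (adjusted p = 0.0245), Lrp1, which takes up heme bound to hemopexin, by 0.59 (adjusted p = 0.0122), and Cd163, the receptor for hemoglobin bound to haptoglobin, by 0.84 (adjusted p = 0.0412). Cd163 is also on the list of CNS-associated macrophage markers, and it was lower in GFP+ libraries (12.2 ± 3.22 against 26.5 ± 8.73 CPM, SD, n = 4) although that list in sum was higher. In cells with at least 3 of those markers Cd163 fell by 2.63 (adjusted p = 0.00286, edgeR). Cd163 itself helps to select these cells, and more so where it is higher. The size and p-value of that fall therefore cannot be separated from the selection. Of mitochondrial iron and iron-sulfur genes 3 were higher and 1 lower of 15. Slc25a37, the mitochondrial iron importer, fell by 1.12 (adjusted p = 0.00809), while Bola3 and Hscb, which help to assemble iron-sulfur clusters, were 0.67 and 0.58 higher (adjusted p = 0.0424 and 0.0170).

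Iron sensing, chaperones and ferritin turnover had 2 higher of 7 (Ncoa4, the receptor that takes ferritin to the lysosome, and the iron chaperone Pcbp2, named after their values were seen). Heme synthesis had 2 higher and 1 lower of 8, with Alas1, its first enzyme, lower. Regulators of ferritin and heme oxygenase and their other targets had 2 higher of 10, with the peroxidase Prdx1 at 0.82 (adjusted p = 0.0305). The exporter Slc40a1, the single tested gene of iron export, was -0.04 and not called. Counts in these roles stand beside 16.6% of all genes called higher and 15.9% lower. In cells with fewer than 1000 UMIs, Hscb turned sign (-1.20, adjusted p = 0.0258), as did Prdx1 (-0.33), Bola3 (-0.19) and Slc39a14 (0.11), which were not called there.

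Several of these pathway calls lay near the threshold and rested on single libraries. The Cd163 call was lost without either GFP- or GFP+ library of mouse 2, 27 or 4 (-0.93 to -0.53, adjusted p = 0.0635 to 0.0848) and with mouse as a block (-0.80, adjusted p = 0.113). The Flvcr1 call was lost without either GFP- i.v. library, the GFP+ library of mouse 27 or either library of mouse 19 (0.81 to 0.94, adjusted p = 0.0539 to 0.0705). Bola3 was not called without any 1 i.v. library or the GFP- library of mouse 19 (0.48 to 0.70, adjusted p = 0.0745 to 0.111), nor with the block (0.64, adjusted p = 0.0809) or library totals (0.38, adjusted p = 0.133). Prdx1 was not called without the GFP+ library of mouse 2, either library of mouse 27 or either of mouse 19 (0.66 to 0.84, adjusted p = 0.0552 to 0.0830), nor with library totals (0.53, adjusted p = 0.0816). Slc39a14 was not called without either library of mouse 2 or the GFP- library of mouse 27 (-0.60 to -0.55, adjusted p = 0.0507 to 0.0759). Hscb was not called without the GFP- library of mouse 27 (0.52, adjusted p = 0.0569). Slc46a1 was not called without the GFP- library of mouse 27 (-0.59, adjusted p = 0.0545). Slc48a1, Blvra, Abcg2, Lrp1 and Slc25a37 were called without any single library. They were less stable over 16 other settings. There the call was lost in 5 for Slc48a1, 3 each for Blvra and Lrp1, 2 for Slc25a37 and 1 for Abcg2. The sign turned in 1 more each for Blvra and Lrp1.

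Genes whose levels ran most like each member over the 12 libraries are given as a description, since the naive libraries differ most and set much of the likeness. Among 6495 genes with a mean of at least 20 CPM, Pearson's r of log2(CPM + 1) was highest for Cp with Apoe (0.98), Slc38a6 (0.95) and Axl (0.94). For Blvrb the nearest were Apobec1, Mdfic and Tmem176a (0.97 to 0.98), and for Ftl1 Npc2, Gm10073 and Cyb5r1 (0.98 to 0.99). Hmox1 ran most like Rnf145, Prdm1 and Cd83 (0.98 to 0.99), and Trf most like Stx12, Ube2e3 and Ddrgk1 (0.97 to 0.99). The likeness was less close for Fth1, with Sptssa (0.90) and Ddrgk1 (0.89). Tfrc ran most like Smarcc2, Ppme1 and Sc5d (0.94 to 0.95), and Ireb2 like Arid1a, Ppp1r12c and Clcn7 (0.97).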

How the data were processed

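Droplet-based 3' single-cell RNA sequencing was done on 12 libraries (4 GFP-, 4 GFP+ and 4 naive). The authors deposited raw UMI counts per gene and cell barcode, written by Cell Ranger 3.1.0 per the file headers, with the build mm10 per the processing notes. Barcodes were kept from 200 detected genes upwards if mitochondrial genes gave no more than 10% of their UMIs, their counts were summed per library, and clusters were not built. No doublet caller was run. Each naive library was deposited with 2500 barcodes.

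Summed counts were tested with edgeR 4.0.16 (filterByExpr, TMM, quasi-likelihood F test, Benjamini-Hochberg adjustment over all genes) in R 4.3.3, with the standard error taken as the log2 fold change over the root of F. GFP+ and GFP- were compared over 8 libraries, and routes and the interaction in a model of 4 groups. DESeq2 1.42.0 and other settings are given as alternatives. For thinning, every cell was drawn down to 500 UMIs with a fixed seed, leaving out shallower cells (93 in the naive neuron sort, 792 in the microglia sort, 7 in blood and 0 elsewhere). Marker classes were cells with at least 3 detected genes of a list. Intervals are exact at 95%, and a floor is 3 counts. Both cover counting error only.

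The test was tested on simulated data: of 200 genes changed 4-fold, 92.5% were called for GFP+ against GFP- (11809 genes) and 57.5% for the interaction (12171 genes). Every simulated gene had a dispersion of 0.05 and libraries were drawn without pairing by mouse. Between the sorts all 8 genes differed by less than 4-fold, and recovery of such smaller changes was not tested. The p-values measure the spread between these libraries, which are separate mice within a sort. GFP+ and GFP- libraries of a number come from the same mouse by their labels, and their deviations from the group means correlated at 0.33, -0.34, -0.37 and 0.03 for mice 2, 27, 4 and 19 (5960 genes). The 8 genes, the lists and the rules were chosen with earlier results of these data known. Named genes were the 8, up to 6 called pathway genes with the largest fold change in each direction, and the 3 genes most like each member, of which 1 is not reported here.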

Additional observations from a re-analysis of the deposited data

Results flagged for a closer look

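Of 18 groups of 4 libraries examined for a library far from the rest, 2 stood out, where chance gives about 1 in 20. Ftl1 was lowest in the GFP+ library of mouse 4, with a gap to the next library of 0.839 of the whole range. Tfrc was lowest in the deep GFP+ library of mouse 2, with a gap of 0.846 of the range.

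The difference between GFP+ and GFP- libraries depended on the route for 3 genes of the uptake list that neutrophils carry, by the interaction in edgeR. The fitted log2 values were 14.6 for Hp (haptoglobin, adjusted p = 0.0210), 15.6 for Ltf (lactotransferrin, adjusted p = 0.00673) and 17.8 for Lcn2 (lipocalin 2, adjusted p = 0.00673). Libraries at 0 make these sizes depend on the prior count. Hp had 312 and 217 UMIs in the GFP+ libraries after i.v. dosing and 0 in both after i.c.v. dosing, against 14 and 5 in GFP- libraries after i.v. and 317 and 52 after i.c.v. dosing. The summed neutrophil markers moved with them, at 1669 and 3305 CPM in GFP+ libraries after i.v. and 112 and 113 CPM after i.c.v. dosing, and at 511 and 340 against 6035 and 1181 CPM in GFP- libraries. Their part in the result was not tested.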

How the results depend on the processing

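Log2 fold changes of the 8 genes were recomputed over 1120 combinations of gene, comparison and setting. Direction and side of the threshold were kept in 981, the call was lost in 33 and gained in 17, and the sign turned in 89. Drawing summed counts down, omitting TMM and splitting cells at 1000 UMIs or by 3 markers of CNS-associated macrophages were chosen after seeing the data. Wherever a value turned or a call was lost, the cause was not tested. For the 12 other named genes between the sorts, 212 of 288 values kept direction and call, 64 lost the call and 12 turned. Counts of all genes called are given below without the number tested in each fit.

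With each library left out in turn, 3 to 6 of the 8 genes were called between the sorts, 5 to 7 after i.v. and 0 to 1 after i.c.v. dosing, and 0 to 0 for both route comparisons and the interaction. All genes called were 2177 to 3791, 2974 to 4273 and 84 to 792 for the sorts in all, after i.v. and after i.c.v. dosing, 42 to 293 and 0 to 23 for route in GFP+ and GFP- cells, and 41 to 239 for the interaction. The lowest count of 3 came without the GFP- library of mouse 27. The log2 difference of the Fth1 to Ftl1 ratio ran from -0.023 to 0.20, the lowest without the GFP- library of mouse 27. Signs turned for Tfrc between the sorts (-0.22 to 0.15), after i.v. (-0.76 to 0.31) and after i.c.v. dosing (-0.33 to 0.68), by route in GFP- cells (-0.73 to 0.42) and in the interaction (-0.93 to 0.22), for Blvrb by route in GFP+ cells (-0.16 to 0.10), for Fth1 after i.c.v. dosing (-0.0067 to 0.68) and for Hmox1 in the interaction (-0.45 to 0.93).

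With mouse as a replicate block, which pairs the sorts, Fth1 (0.82) and Ftl1 (0.72) lost their call between the sorts, and Trf (0.46) and Hmox1 (0.65) gained one. The interaction then had 678 genes called, and 412 with sex as covariate. Route within a sort could not be fitted with the mouse as a block, since each mouse had 1 route. For the ratio, the within-mouse sign-flip permutation gave p = 0.75.

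With DESeq2, route called 526 genes in GFP+ and 68 in GFP- cells (1 of the 8), and the interaction 598 (1 of the 8). With no filter on low counts these were 679, 83 (1) and 698 (1). With at least 500 genes per cell the interaction had 142. With upper-quartile scaling the interaction of Hmox1 was -0.017. With library totals, the sort difference after i.c.v. dosing was -0.080 for Tfrc and the interaction -0.051 for Trf and -0.17 for Hmox1.

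At 500 UMIs per cell, 2 of the 8 genes were called between the sorts and 3 after i.v. dosing. All genes called were 1274 between the sorts, 1400 after i.v. and 374 after i.c.v. dosing, 69 and 2 for route in GFP+ and GFP- cells and 63 for the interaction. Signs turned for Hscb (-0.034) between the sorts, Fth1 (-0.15), Ftl1 (-0.034) and Ireb2 (0.16) after i.c.v. dosing, Blvrb (0.36) by route in GFP+ and Tfrc (0.024) by route in GFP- cells. With summed counts drawn down, these counts of all genes were 1979, 2611, 315, 143 and, for the interaction, 126, and Tfrc was -0.13 after i.c.v. dosing.

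In cells with under 1000 UMIs, 1 of the 8 genes was called between the sorts and 2 after i.v. dosing (1181 of all genes), with 6 genes for route in GFP+ cells and 4 for the interaction. Signs turned between the sorts for Fth1 (-0.75), Ftl1 (-0.66), Trf (-0.48), Hmox1 (-0.028), Ireb2 (0.44), Prdx1 (-0.33), Bola3 (-0.19), Hscb (-1.20) and Slc39a14 (0.11), and after i.v. dosing for Fth1 (-0.43), Ftl1 (-0.49), Tfrc (0.25), Trf (-0.66), Hmox1 (-0.57) and Ireb2 (0.40). They turned after i.c.v. dosing for Fth1 (-0.98), Ftl1 (-0.77), Tfrc (-0.42), Trf (-0.35), Blvrb (-0.18) and Ireb2 (0.52), by route in GFP+ cells for Fth1 (-0.13), Ftl1 (-0.24), Tfrc (0.20), Blvrb (0.31) and Ireb2 (0.26), and in the interaction for Tfrc (0.67), Trf (-0.32) and Hmox1 (-0.79). The Fth1 to Ftl1 ratio was -0.066.

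In cells with at least 3 macrophage markers, 0 of the 8 genes were called between the sorts, after i.v. and after i.c.v. dosing, with 26, 14 and 7 of all genes, 8 for route in GFP+ cells and 0 for the interaction. Signs turned between the sorts for Fth1 (-0.30), Ftl1 (-0.19), Hmox1 (-0.17), Blvrb (-0.36), Flvcr1 (-0.014), Prdx1 (-0.92), Blvra (-0.016), Bola3 (-0.069), Slc46a1 (0.14), Slc39a14 (0.15) and Lrp1 (0.15). After i.v. dosing they turned for Fth1 (-0.39), Ftl1 (-0.21), Hmox1 (-0.32), Blvrb (-0.52), Cp (-0.027) and Ireb2 (0.089), and after i.c.v. dosing for Fth1 (-0.18), Ftl1 (-0.15), Tfrc (-0.84), Hmox1 (-0.039) and Blvrb (-0.20). By route they turned in GFP+ cells for Blvrb (0.045) and Ireb2 (0.22) and in GFP- cells for Fth1 (0.35), Ftl1 (0.19), Tfrc (0.010), Blvrb (0.37), Cp (0.34) and Ireb2 (-0.32), and in the interaction for Fth1 (-0.21), Ftl1 (-0.069), Hmox1 (-0.28), Blvrb (-0.33), Cp (-0.44) and Ireb2 (0.54). The ratio was -0.020.

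In cells with under 3 such markers, 2 of the 8 genes were called between the sorts (1173 of all genes), 2 by route in GFP+ cells (2020) and 1 in the interaction (1148), with 196 genes for the sorts after i.c.v. dosing. Signs turned for Tfrc between the sorts (0.51), after i.v. dosing (0.29) and by route in GFP- cells (0.092), for Blvrb by route in GFP+ cells (0.0096), for Ireb2 after i.c.v. dosing (0.15) and in the interaction for Trf (-0.10) and Hmox1 (-0.069).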
